A study of Mus musculus with 36 samples.

Results

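Mmp12, Mmp13, Mmp14, Spp1, Gpnmb, Ctsk, Ctsd and Ctsb are 8 genes of matrix breakdown and of the lysosome that are read in macrophages. They were chosen by name, 8 of 31102 genes in the single-cell tables, with the difference between control and double-mutant glands already known, so their levels by genotype, and their levels inside against outside of macrophages, are given as a description, and nothing is read from the calls that fits across all genes make for them. Each gene was followed per gland in all cells, in cells with at least 1 UMI (a counted RNA molecule) of Tyrobp, the DAP12 adaptor of myeloid and NK cell receptors, and in the cells without one. Levels are UMIs per 1000000 UMIs of the same cells (CPM, counts per 1000000).

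Submandibular glands of C57BL/6 mice were dissociated and live cells were sorted. Control mice carried K14-Cre, a Cre driven by the keratin 14 promoter of basal epithelial cells, and an EYFP reporter behind a stop that Cre removes. Double-mutant mice carried both of these too, with a floxed beta-catenin allele that becomes stable (gain of function, GOF) and a floxed Bmpr1a receptor (loss of function, LOF), and develop squamous carcinomas of the salivary gland. This promoter does not drive Cre in macrophages. Drop-seq was run on 12 control glands, 6 at postnatal day (P) 40 and 6 at P90, and on 14 double-mutant glands, 7 at each stage. CITE-seq, which reads surface proteins with tagged antibodies in the same cells, was run at P70 on 2 control and 2 double-mutant glands, and bulk mRNA-seq, without sorting, on 1 gland at P70 that the labels call wildtype (control below) and 1 double-mutant gland at P100.

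Matrix metalloproteinases are zinc enzymes that cut extracellular matrix. Mmp12 is the macrophage elastase, Mmp13 a collagenase, and Mmp14 a collagenase held in the cell membrane that also activates pro-Mmp2. Spp1 is osteopontin, a secreted matrix protein that binds integrins and CD44, and Gpnmb is a glycoprotein of lysosomes and the cell surface. Ctsk, Ctsd and Ctsb are lysosomal proteases, of which cathepsin K digests collagen in osteoclasts and fibroblasts and cathepsins D and B work in most cells. Macrophages that take up debris or lipid are known to raise several of these genes together, and tumors often hold such cells.

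The regions around the start sites of the genes are shown so that short motifs of factors known for macrophage, matrix and lysosome genes can be seen in them. Whether these motifs bear on the levels of the genes was not tested. RefSeq entries (GRCm38.p6) gave 9 windows of 250 bases before to 50 after a start site for 7 of the 8 genes. The entry of Ctsb is missing. The stretches below run 5′ to 3′ on the strand of the gene, and capitals mark TGANTCA (AP-1), CACGTG (bound by the MiT/TFE factors), CATGTG (M-box) and GAGGAAGT (PU.1), each read on both strands, so that ACTTCCTC and CACATG are the last pair on the opposite strand.
Mmp13, chr9:7272394-7272513, plus strand: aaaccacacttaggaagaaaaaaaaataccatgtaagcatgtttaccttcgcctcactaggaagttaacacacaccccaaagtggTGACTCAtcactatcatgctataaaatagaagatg
Mmp12, chr9:7347254-7347373, plus strand: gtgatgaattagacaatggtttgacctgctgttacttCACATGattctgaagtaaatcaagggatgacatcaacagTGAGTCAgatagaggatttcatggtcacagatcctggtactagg
Mmp12, a second start site, chr9:7344277-7344396, plus strand: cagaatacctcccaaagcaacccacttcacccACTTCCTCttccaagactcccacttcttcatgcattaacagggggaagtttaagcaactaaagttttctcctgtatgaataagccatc
Spp1, chr5:104434991-104435110, plus strand: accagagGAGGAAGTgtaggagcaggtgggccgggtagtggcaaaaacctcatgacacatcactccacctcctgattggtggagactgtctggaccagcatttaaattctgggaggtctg
Gpnmb, chr6:49036398-49036537, plus strand: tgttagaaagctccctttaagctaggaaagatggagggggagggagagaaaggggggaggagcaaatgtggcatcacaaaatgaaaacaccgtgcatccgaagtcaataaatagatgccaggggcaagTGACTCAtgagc
Ctsd, chr7:142387907-142388077, minus strand: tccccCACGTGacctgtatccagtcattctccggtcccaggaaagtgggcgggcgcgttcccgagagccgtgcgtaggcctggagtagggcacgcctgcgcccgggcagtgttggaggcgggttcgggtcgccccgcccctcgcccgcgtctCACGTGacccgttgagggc

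TGANTCA stood in a window of Mmp13, Mmp12 and Gpnmb, against 7.81% of all 32851 promoters. CACGTG occurred at 2 places in the window of Ctsd (7.15% of all promoters hold it), CATGTG in 1 window of Mmp12 (14.2%), and GAGGAAGT in 1 window each of Mmp12 and Spp1 (3.2%). TATAAA was found for Mmp12, Mmp13 and Spp1 (13.6%) and TGTGGTT, a Runx motif, for Gpnmb, Mmp13 and Spp1 (5.27%). The window of Mmp14 and that of Ctsk held none of the 6 motifs. These are matches of letters, and binding was not measured.

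CITE-seq samples were spiked with human HEK cells, which the study removed with reads mapped to the human genome. That step was not repeated here, and whether the tables precede it was not tested. After the other limits of the study (at least 100 genes, under 15% mitochondrial UMIs, and under 2500 genes in CITE-seq), 25881 of 30082 barcodes were kept, with 650301 to 6994504 UMIs per Drop-seq gland. Of these cells, 20 shared a barcode with a cell of another library. The library labelled double-mutant P40 replicate 1, a male, held 591 Xist UMIs, and the library labelled double-mutant P90 replicate 5, a female, held 0 Xist and 194 Y-linked UMIs. Both are from the same batch and may be exchanged, stage included, so results are also given without this pair. The 4 CITE-seq libraries each held 151 to 193 Xist UMIs together with 14 to 71 Y-linked UMIs, so their sex labels (control replicate 1 male, the others female) are not borne out by the transcripts, and the part of this in the results was not tested. In double-mutant P90 replicate 4 the median cell had 11.95% ribosomal UMIs. Control glands at P90 came from other batches than those at P40, so stage and batch cannot be told apart in controls, whereas 5 batches held both genotypes. Replicates are separate glands by their labels.

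Tyrobp was found in 2237 cells, of which 532 of 10743 were Drop-seq control cells, 1180 of 12603 Drop-seq double-mutant, 215 of 1400 CITE-seq control and 310 of 1135 CITE-seq double-mutant cells. All 15 macrophage markers on the list (such as Csf1r, Lyz2, C1qa and Cd68) were detected in these cells. At least 2 of them were found in 73.1% of Tyrobp-positive control cells at P40 and 75.1% at P90, and in 81.5% and 85.7% of the double-mutant ones. At least 2 of 10 T and NK cell markers were found in 10.5% and 8.6% of the control and 4.9% and 0.95% of the double-mutant cells. At least 2 of 8 epithelial markers were found in 27.9% and 13.1% of the control and 11.6% and 6.5% of the double-mutant cells. The macrophage markers together had 4849 and 7709 CPM in the control and 13287 and 14074 CPM in the double-mutant cells. Per gland with at least 10 such cells they ran from 1693 to 10188 and from 978 to 10506 CPM in controls. In double-mutant glands they ran from 10432 to 19194 and from 11500 to 17026 CPM. Tyrobp itself had 966 CPM in these cells of Drop-seq controls and 1546 CPM in those of double-mutants. The Tyrobp-positive cells were thus mostly macrophages by these markers, with more cells that held T and NK or epithelial markers in controls. The part of that mix in the differences below was not tested, other than by keeping only cells with at least 2 macrophage markers.

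The share of Tyrobp-positive cells was 9.66% ± 4.11 (SD, n = 14) in double-mutant glands and 4.93% ± 3.70 (SD, n = 12) in control glands. The difference of 4.73 percentage points had a two-sided permutation p of 0.0041, and all 14 double-mutant glands lay above the control median. With other settings, among them thinned cells and only the glands of the 5 batches with both genotypes, p ranged from 0.0024 to 0.0189. None of these permutations kept glands within their batch. By batch, the mean share in double-mutant and control glands was 13.1% and 1.26% in batch 8, 8.62% and 2.70% in batch 13 and 4.71% and 1.68% in batch 14. In batch 12 it was 7.98% and 7.89%, and in batch 9 it was lower in the double-mutant gland, 6.66% and 9.89%. At P90 the share was 10.2% ± 3.19 (SD, n = 7) and at P40 9.12% ± 5.08 (SD, n = 7) of double-mutant cells, a difference of 1.08 points with a two-sided exact permutation p of 0.635, whose sign depended on the setting.

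In whole glands all 8 genes were higher in double-mutant than in control glands by their median CPM, most for Spp1, Mmp12 and Gpnmb and least for Ctsd. In a fit with library sizes only, the median of all genes was also higher in double-mutants, by 0.68 (log2). Spp1, osteopontin, lay between 0.419 and 15.9 CPM in the 12 control glands, with a median of 4.92. It reached 6.57, 25.95 and 870 CPM (lowest, median and highest of 7) in double-mutant glands at P40 and 41.0, 361 and 1629 CPM at P90. Of 14 double-mutant glands 13 exceeded every control gland, the exception being double-mutant P40 replicate 7. The log2 fold change was 5.01 ± 0.67 (SE) after TMM scaling, with stage and sex in the edgeR fit.

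Mmp12, the macrophage elastase, ranged from 0 to 7.43 CPM in controls with a median of 2.14. Double-mutant glands had 4.30, 18.9 and 280 CPM at P40 and 6.62, 126 and 630 CPM at P90, and 12 of 14 exceeded every control gland. Its log2 fold change was 4.02 ± 0.64 (SE). The 2 glands within the control range were double-mutant P40 replicate 3 and P90 replicate 7, both among the more deeply sequenced.

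Gpnmb was nearly absent from controls, with 5 UMIs over 12 glands, 9 of them at 0 and the highest at 1.15 CPM. In double-mutant glands it reached 0, 0.461 and 69.2 CPM at P40 and 0, 23.5 and 69.4 CPM at P90. The double-mutant glands fell apart widely, with 4 of 14 at 0 and 9 above every control. Over all glands of a genotype the 381 against 5 UMIs gave a ratio of 94.7, with an exact 95% counting interval of 40.2 to 293, and the fitted log2 fold change was 5.76 ± 1.04 (SE). Such intervals cover counting error only.

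Mmp13 and Mmp14 differed less. Mmp13 was at 0 in 7 of 12 control glands and at most 2.35 CPM in the others, and had 1.23, 2.09 and 17.3 CPM in double-mutant glands at P40 and 0, 6.23 and 20.2 CPM at P90, with a log2 fold change of 2.59 ± 0.61 (SE). Mmp14 lay at 0.633 to 17.5 CPM in controls, with a median of 6.69, and at 6.45, 27.2 and 98.4 CPM at P40 and 7.64, 51.2 and 224 CPM at P90 in double-mutant glands, with a log2 fold change of 1.75 ± 0.39 (SE). Both genes overlapped between genotypes, since 9 and 10 of 14 double-mutant glands exceeded all controls.

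The cathepsins separated by gene. Ctsb lay at 58.3 to 162 CPM in controls and at 127, 198 and 589 CPM at P40 and 104, 404 and 1392 CPM at P90 in double-mutant glands (log2 fold change 1.15 ± 0.19, SE), with 12 of 14 above all controls. Ctsd, at 77.5 to 231 CPM in controls and 123 to 564 CPM in double-mutant glands, had a log2 fold change of 0.18 ± 0.15 (SE). With plain library sizes in place of TMM it passed too, but that scaling moved the median of all genes by 0.68 (log2). Ctsk, with 27 control and 102 double-mutant UMIs in all, did not pass the filter on low counts, and 7 of 14 double-mutant glands exceeded the highest control at 2.94 CPM.

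Of the 7 genes tested, 6 passed an adjusted p of 0.05 as higher (edgeR, Benjamini-Hochberg), beside 14.4% of 10488 genes called higher, 7.56% lower and 22% in either direction. Since the genes were chosen on this contrast, nothing is read from that count. The same 6 passed without the pair of doubtful libraries. Within the 5 batches that hold both genotypes the double-mutant mean was higher in 5 of 5 for 7 genes and in 4 of 5 for Gpnmb. These means are plain CPM. With library sizes only, the median of all genes was 0.68 (log2) higher in double-mutants, with 5532 of 10488 genes called higher and 51 lower. The share of all genes that were higher in 5 of 5 batches was not taken, so nothing is read from these counts. With batch as a term in the fit, only Mmp12 (log2 fold change 3.51 ± 0.82, SE) and Spp1 (3.90 ± 0.82, SE) passed. Gpnmb (4.72 ± 1.47), Mmp13 (2.67 ± 0.86), Mmp14 (1.70 ± 0.52) and Ctsb (0.91 ± 0.26) lost the call, and Ctsd turned to -0.06. In the fit without batch, all 15 macrophage markers were higher, with a median log2 fold change of 1.64 beside 0.02 for all genes. So were 6 of 6 fibroblast markers (median 2.26), 5 of 6 endothelial markers (1.51), 2 of 3 B and plasma cell markers tested (2.88) and, of 2 neutrophil markers tested, S100a8. Of the T and NK markers 0 of 3 tested were called, and of the mural cell markers 0 of 3. Of 8 epithelial markers 2 were higher, Krt19 and Krt5, and 2 lower, Aqp5 and Epcam. The part of these cell types in the whole-gland levels was not tested, other than by the levels inside and outside of Tyrobp-positive cells below.

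**Figure D1:**
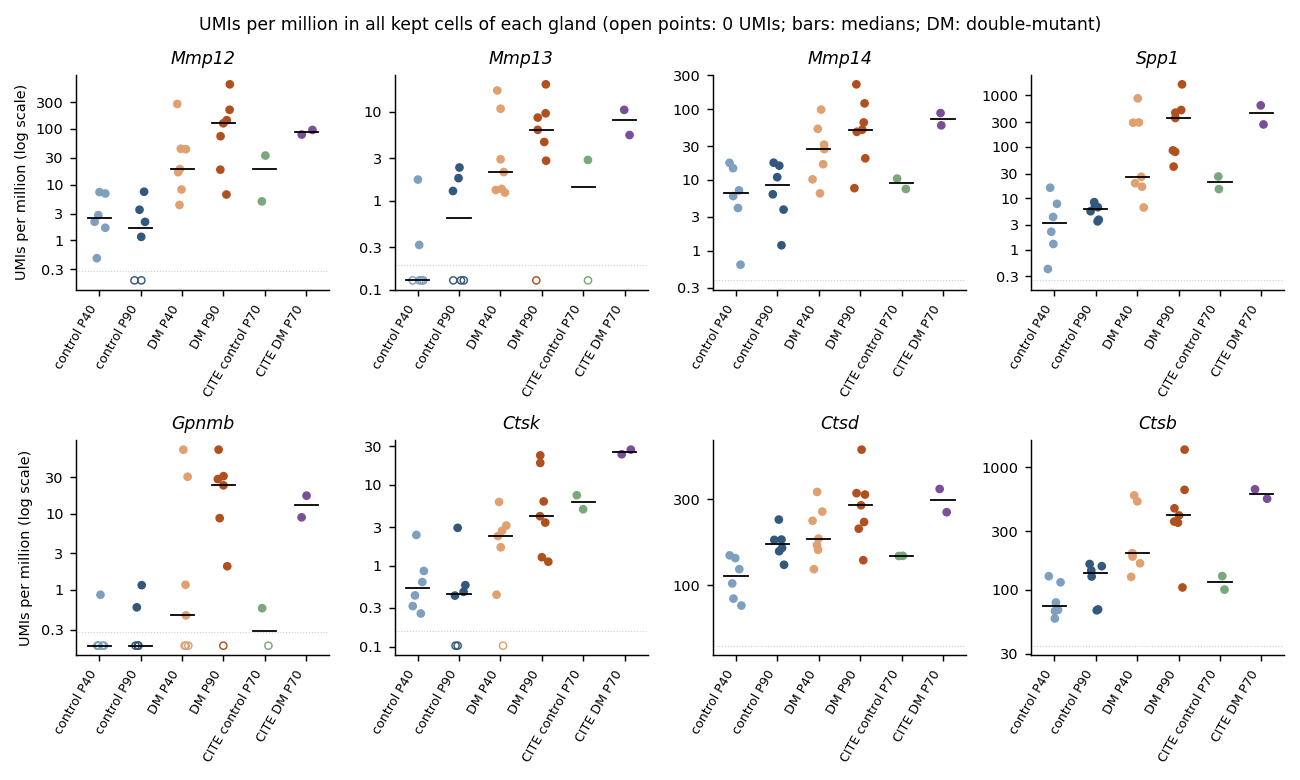
Each point is 1 gland, on a log axis in CPM of all kept cells, by group (P40 and P90 Drop-seq, P70 CITE-seq), with open points for 0 UMIs and bars for medians. Spp1 in double-mutant glands spreads from 6.57 to 1629 CPM and lies above all 12 Drop-seq controls in 13 of 14 glands, whereas Ctsd overlaps.

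The UMIs of the 8 genes came from different cells. In double-mutant Drop-seq glands Tyrobp-positive cells held 5.48% of all UMIs. They held 88.2% of the Gpnmb, 73.2% of the Mmp12, 59.3% of the Spp1 and 57.3% of the Mmp13 UMIs. They held 45.3% of Ctsb, 27.1% of Ctsd, 26.8% of Mmp14 and 15.7% of Ctsk. Gpnmb and Mmp12 were therefore mainly read in macrophages here, and Ctsk and Mmp14 mainly elsewhere.

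Cells without Tyrobp were put in the class of which they held the most markers, at least 2. Cells of the fibroblast class (287 double-mutant cells with 1.03% of all UMIs) held 68.6% of Ctsk, 19.8% of Mmp14 and 18.2% of Spp1. In these stromal cells Ctsk stood at 212 CPM, against 9.13 CPM in Tyrobp-positive cells. Spp1 stood at 2925 CPM, above the 1797 CPM of Tyrobp-positive cells, and at 842 CPM in the 60 stromal cells of controls. The glands spread widely, from 22.7 to 9272 CPM in 12 double-mutant glands with at least 10 stromal cells and at 72.6 and 2071 CPM in the 2 such control glands, so the pooled control level depends on 1 gland. Mmp12 had 1 UMI and Mmp13 none in the double-mutant stromal cells, and 0 UMIs allow up to 9.08 CPM there. Osteopontin was thus high in both stromal and Tyrobp-positive cells, and the macrophage elastase in the latter.

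Epithelial cells, classed in the same way by 8 markers, held most of the lysosomal proteases of control glands, with 79.7% of Ctsd and 60.1% of Ctsb, and 53.0% and 27.6% in double-mutant glands. The level of Ctsd in epithelial cells, per gland, had a median of 150 CPM in controls and 194 CPM in double-mutants, and the ranges overlapped (78.2 to 279 and 118 to 430 CPM). In cells of no class Ctsd had medians of 110 and 174 CPM. Ctsb in epithelial cells had medians of 76.5 and 151 CPM, against 489 (2 glands) and 597 CPM in stromal and 222 and 324 CPM in endothelial cells. The share of Ctsb in epithelium is thus not a higher level there. The Ctsd of whole glands was for the most part epithelial in both genotypes.

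**Figure D2:**
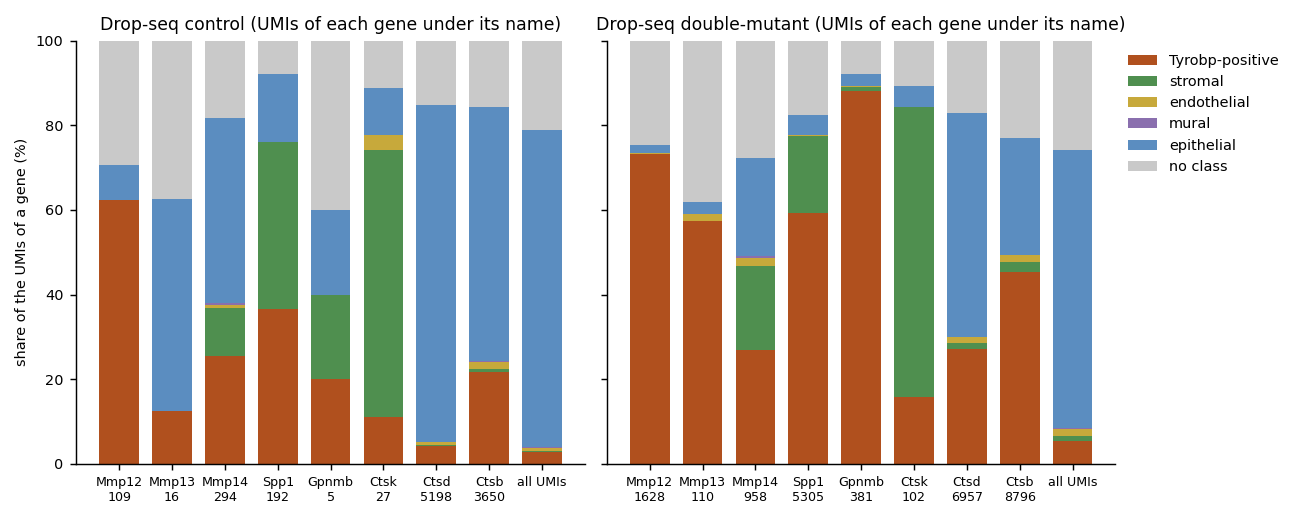
Bars give the share (%) of the UMIs of each gene in cells of each class, with the number of UMIs under the gene and all UMIs in the last bar, for Drop-seq control (left) and double-mutant glands (right). In double-mutant glands Tyrobp-positive cells hold 88.2% of Gpnmb but 15.7% of Ctsk, which lies in stromal cells (68.6%), and control bars for Gpnmb (5 UMIs) and Mmp13 (16) rest on few counts.

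Inside Tyrobp-positive cells 25 glands could be compared, since control P90 replicate 3 had 6 such cells and was left out of the fit. A gland held 32914 to 319656 UMIs of these cells, so that 0 UMIs of a gene allow 9.39 to 91.1 CPM in a gland. Spp1 had 57.0 CPM in the median control gland at P40 and at most 192 CPM in any control. In double-mutant glands it reached 30.4, 331 and 7142 CPM at P40 and 449, 2455 and 6617 CPM at P90. All 7 P90 glands lay above every control, and of the P40 glands replicates 4 and 7 lay within the control range (168 and 30.4 CPM).

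Mmp12 had at most 192 CPM in control Tyrobp-positive cells, against 75.1, 440 and 2183 CPM at P40 and 189, 1122 and 4157 CPM at P90 in double-mutant ones. Gpnmb had 1 UMI in all control glands and 336 in double-mutant ones, a ratio of 205 with a counting interval of 36.5 to 8112. Per gland Gpnmb reached 0, 6.26 and 791 CPM at P40 and 0, 221 and 495 CPM at P90. Mmp13 had 2 against 63 UMIs (ratio 19.2, interval 5.10 to 162), and 13 of 14 double-mutant glands lay above every control. Mmp13 was thus low, at most 88.6 CPM, and was read in 13 of 14 double-mutant glands. It was at 0 in 10 of 12 control glands, where 0 UMIs allow the levels given above, so these few counts cannot rank single glands.

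Cathepsins D and B were higher in Tyrobp-positive cells of most double-mutant glands. Ctsb had medians of 598 and 816 CPM in control glands at P40 and P90, and 1696, 1893 and 2853 CPM at P40 and 1290, 2297 and 4793 CPM at P90 in double-mutant glands, 12 of 14 above every control. Ctsd had medians of 198 and 147 CPM in controls, with 1 gland at 759 CPM, and 848 and 882 CPM in double-mutants, 9 of 14 above every control. Its log2 fold change, given below, was also larger here than in whole glands. Mmp14 overlapped (at most 243 CPM in controls, 65.7 to 481 CPM in double-mutants), and Ctsk had 3 and 16 UMIs.

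The log2 fold changes inside Tyrobp-positive cells were 4.37 ± 0.73 for Spp1, 3.09 ± 0.61 for Mmp12, 6.23 ± 1.34 for Gpnmb, 1.57 ± 0.34 for Ctsd, 1.07 ± 0.21 for Ctsb and 0.59 ± 0.36 for Mmp14 (SE). Of these 6 genes, 5 passed an adjusted p of 0.05 as higher (edgeR), beside 7.75% of 1303 genes called higher, 5.91% lower and 13.7% either way, and nothing is read from this count either. The 5 also passed in cells with at least 2 Tyrobp UMIs, in cells with at least 2 macrophage markers, and without the doubtful pair. With batch in the fit Ctsd (1.52 ± 0.39) and Ctsb (1.10 ± 0.26) passed, while Mmp12 (2.604), Spp1 (3.25) and Gpnmb (6.43) did not.

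**Figure D3:**
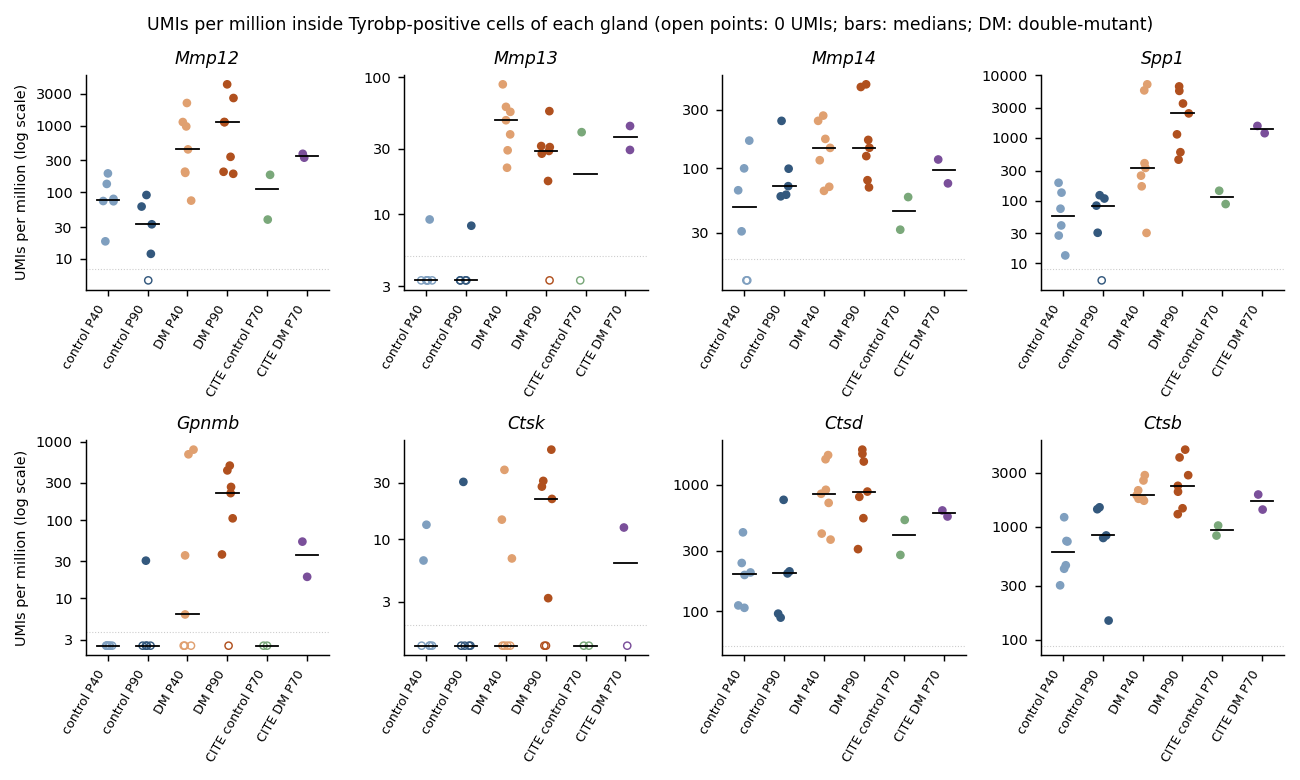
Points are glands with at least 10 Tyrobp-positive cells, on a log axis in CPM of those cells, with open points for 0 UMIs and bars for medians. Ctsb lies between 1290 and 4793 CPM in all 14 double-mutant Drop-seq glands, whereas Gpnmb is at 0 in 4 of them and reaches 791 CPM.

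Double-mutant glands differed from each other more in Spp1, Gpnmb and Mmp12 than in the cathepsins. In Tyrobp-positive cells Spp1 ran from 30.4 CPM, which is 1 UMI, and 168 CPM in the next gland to 7142 CPM. The highest gland had 55.4 times the Mmp12 level of the lowest, 6.12 times the Ctsd level and 3.72 times the Ctsb level. Spp1 and Gpnmb were high in the same glands. At P40, replicates 5 and 6 had 7142 and 5716 CPM of Spp1 with 689 and 791 CPM of Gpnmb, while the other 5 had at most 394 CPM of Spp1 and 35.5 CPM of Gpnmb. At P90, replicates 5 and 6 were the highest in Spp1 (6617 and 5614 CPM) and Gpnmb (495 and 430 CPM).

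Mmp12 was less close to this order in some glands. Double-mutant P40 replicate 7 had 972 CPM of Mmp12 in Tyrobp-positive cells with 30.4 CPM of Spp1 and 0 Gpnmb UMIs, which allow up to 91.1 CPM. Double-mutant P90 replicate 1 had 203 CPM of Mmp12 beside 264 CPM of Gpnmb and 1893 CPM of Ctsd, the highest Ctsd of all glands. Over the 14 glands Spearman's rho was 0.90 between Spp1 and Gpnmb, 0.85 between Gpnmb and Ctsd, and for Mmp12 it was 0.71 with Spp1, 0.70 with Mmp14, 0.62 with Gpnmb, 0.42 with Ctsb and 0.35 with Ctsd. Mmp14 had 0.42 to 0.70 with the other 5 genes. These correlations are descriptions over glands that share batches, and the median depth of a cell differed among the glands (408 to 4036 UMIs).

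By the same measure, over 1197 genes, Anp32b (rho 0.86) and Abca1 (0.85) were among the genes most like Mmp12. Itgb2 (0.90), Gpnmb (0.90) and Tgfbi (0.88) were most like Spp1, and Spp1 (0.90), Ctsl (0.88) and Ccl6 (0.86) most like Gpnmb. Gnai2 (0.89), Tcirg1 (0.89) and Ier5 (0.88) stood nearest to Mmp14. Ctsb (0.85), Gpnmb (0.85) and Grn (0.83) were nearest to Ctsd, and Ctsd (0.85), Lgals3 (0.81) and Grn (0.80) to Ctsb.

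**Figure D4:**
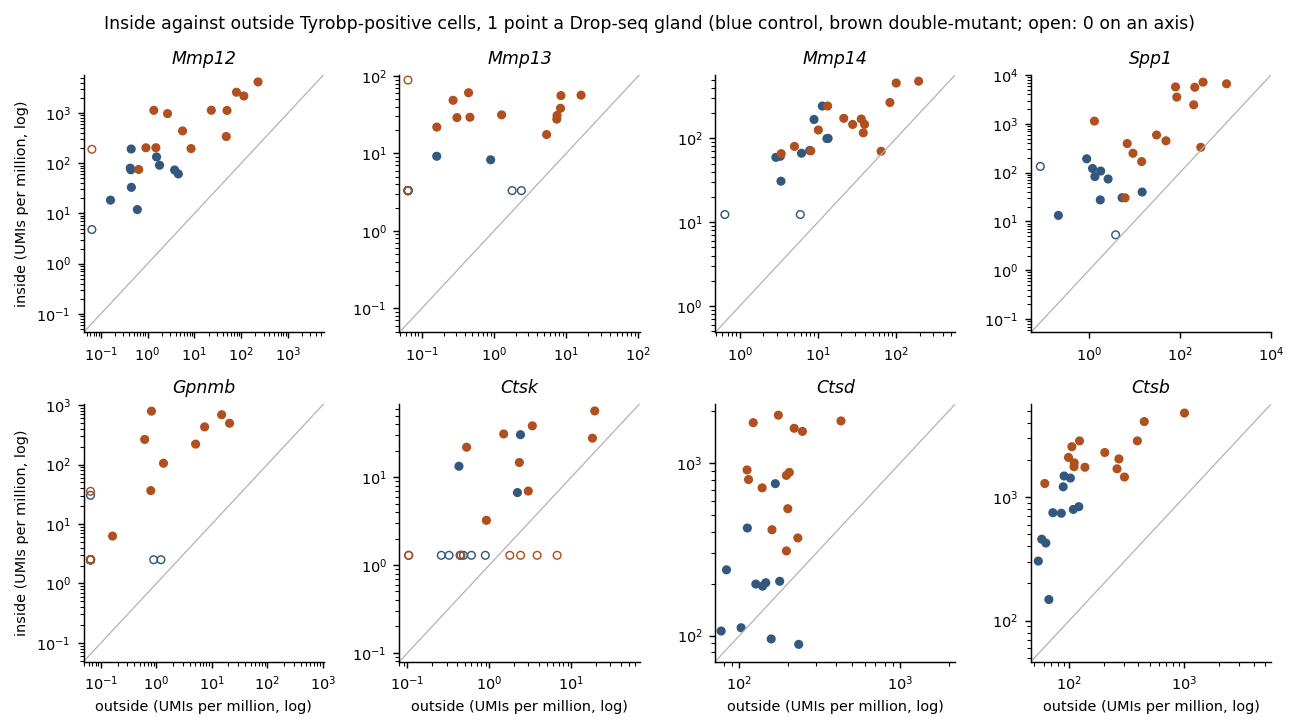
Each point is a Drop-seq gland with at least 10 Tyrobp-positive cells (blue control, brown double-mutant), with its CPM outside Tyrobp-positive cells on the x axis and inside on the y axis, both log scaled, open where either value is 0, and a line of equal level. Mmp12 lies above the line in each gland where it was read, and Ctsd falls below it in control glands only.

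The genes were also found together in single cells. To keep depth equal, each Tyrobp-positive double-mutant cell was thinned to 500 UMIs, which left 920 of 1180 cells. Over all glands, of the 36 cells that then held Gpnmb, 88.9% held Spp1, against 12.7% of cells without Gpnmb. Mmp12 was found in 61.1% against 12.2%, and Ctsd in 97.2% against 26.5%. Cells with Gpnmb were thus nearly all cells with Spp1 and Ctsd, whereas of the 144 cells with Spp1, 22.2% held Gpnmb. Since the glands differed in these genes, the shares were also taken within each gland. Spp1 was found in a larger share of cells with Gpnmb than without in 9 of the 9 glands that had such cells, Ctsd in 8 and Mmp12 in 7, with 1 to 10 cells with Gpnmb in a gland.

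Cells with Mmp12 overlapped less. Among the 130 thinned cells with Mmp12, 40.8% held Spp1 and 16.9% Gpnmb, against 11.5% and 1.77% of the other cells. Within glands the share with Spp1 was larger among cells with Mmp12 in 13 of 14. The share with Gpnmb was larger in 7 of the 9 glands that had a cell with Gpnmb, the same 7 glands as above. Before thinning, all 3 of Mmp12, Spp1 and Gpnmb were found in 1 cell or more of 8 of 14 double-mutant Drop-seq glands. At most 9 such cells were in a gland (P40 replicate 6). No Tyrobp-positive cell of any control gland held all 3. Gpnmb had 1 UMI in these cells of the Drop-seq controls, so at most 1 such cell could have been found there, and nothing is read from its absence. Cells of 1 gland are not independent, and no test was run.

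**Figure D5:**
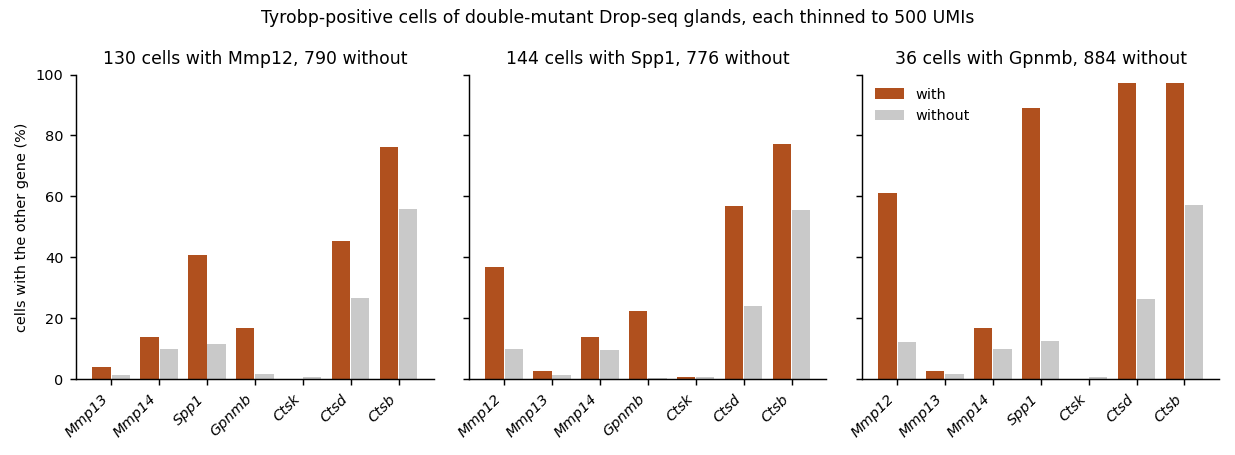
Bars give the percentage of thinned Tyrobp-positive double-mutant cells with a UMI of each other gene, among cells with (brown) and without (grey) Mmp12, Spp1 or Gpnmb. The Gpnmb panel (36 cells) shows Spp1 in 88.9% of cells with Gpnmb and 12.7% without.

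By share of cells, Spp1 was found in 17.97% of double-mutant and 7.52% of control Tyrobp-positive cells (15.7% and 4.54% after thinning), Mmp12 in 17.3% and 7.14% (14.1% and 4.54%) and Gpnmb in 4.41% and 0.188% (3.91% and 0%). The median cell had 843 UMIs in double-mutants and 872 in controls. In epithelial cells of double-mutant glands, which had 1806.5 UMIs in the median, Spp1 was found in 2.35% (1.05% thinned), Mmp12 in 0.496% (0.142%) and Gpnmb in 0.21% (0.0811%). The shares in macrophages were well above those in epithelium, and the part of free RNA in the latter was not tested.

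Outside Tyrobp-positive cells the medians over glands of Spp1 were 1.79 CPM in controls and 64.7 CPM in double-mutants, those of Mmp12 0.448 and 7.02 CPM, those of Mmp14 6.06 and 31.9 CPM and those of Ctsb 78.9 and 171 CPM. Log2 fold changes were 4.60 ± 0.81, 3.66 ± 0.83, 1.86 ± 0.42 and 0.79 ± 0.20 (SE). These 4 of 5 genes passed as higher, beside 11.8% of 10214 genes called higher, 5.05% lower and 16.9% either way, a count from which nothing is read, and with batch in the fit none passed. Ctsd was at -0.10 ± 0.14 (SE).

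A cell without a Tyrobp UMI can still be a macrophage. Of 11423 double-mutant cells without Tyrobp, 989 held at least 2 macrophage markers, and these held 86.9% of the Mmp12 and 83.0% of the Mmp13 UMIs outside. They held 55.6% of Gpnmb, 31.6% of Ctsb, 31.0% of Spp1, 24.5% of Mmp14, 9.38% of Ctsd and 2.33% of Ctsk. The Mmp12 read outside thus lay mostly in cells with macrophage markers, and Spp1, Mmp14 and Ctsk mostly did not. Macrophage markers such as Lyz2 and Csf1r had 1.34% and 2.88% of their inside level outside, and Mmp12 had 2.12%, Spp1 3.97%, Mmp14 15.8% and Ctsk 31.1%.

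From P40 to P90 no gene of the 9857 tested changed in double-mutant glands at an adjusted p of 0.05 (0% called, edgeR, with 586 genes at an unadjusted p under 0.05 and 3 called by DESeq2). Mmp12 had a log2 difference (P90 over P40) of 1.48 ± 0.79 (SE, adjusted p = 0.864), Ctsb of 0.65 ± 0.29 (0.833), Mmp14 of 0.91 ± 0.48 (0.861) and Spp1 of 0.84 ± 0.88 (0.932). Medians were higher at P90 for all 8 genes in whole glands, but glands of one stage spread wider than the stages differed. Gpnmb (0.47 ± 1.09), Mmp13 (0.41 ± 0.63) and Ctsd (0.27 ± 0.23) were smaller. Without the doubtful pair Spp1 turned to -0.03, Gpnmb to -0.65 and Mmp13 to -0.08.

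In Tyrobp-positive cells of double-mutant glands, 0 of 1198 genes passed by stage (0% called, edgeR, 82 at an unadjusted p under 0.05, and 5 called by DESeq2). Mmp12 was at 1.06 ± 0.69 (SE, adjusted p = 0.739), Mmp14 at 0.70 ± 0.38 (0.72), Spp1 at 0.70 ± 0.89 (0.881), Ctsb at 0.48 ± 0.26 (0.72), Ctsd at 0.38 ± 0.41 (0.865) and Gpnmb at 0.15 ± 1.01 (0.983). Outside these cells 0 of 9627 genes passed (0% called, edgeR, 592 at an unadjusted p under 0.05, and 3 by DESeq2), with Mmp12 at 2.20 ± 1.196 (adjusted p = 0.827). A difference of several fold in Spp1 or Gpnmb by stage could not be detected at this spread.

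In control glands Spp1 (0.11 ± 0.48, adjusted p = 0.927), Ctsb (0.12 ± 0.17, 0.723), Ctsd (0.26 ± 0.17, 0.404) and Mmp14 (-0.22 ± 0.48, 0.840) did not pass by stage, beside 10.9% of 9099 genes that did, 9.25% as higher and 1.6% as lower at P90. Batch and stage go together there. Whether the stage difference itself differed between genotypes was tested as an interaction, in which 1 of 11420 genes passed (0.00876%, edgeR, 628 at an unadjusted p under 0.05 and 8 called by DESeq2), the unnamed transcript RP24-89H23.2, which is named here after its values were seen. Of the 7 listed genes tested Mmp12 had the largest interaction, 2.15 ± 1.19 (SE, adjusted p = 0.91), and passed only with no filter on low counts (2.19 ± 0.46, adjusted p = 0.000772).

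The CITE-seq glands at P70 are other mice. Spp1 was at 26.3 and 14.96 CPM in control replicates 1 and 2 and at 270 and 634 CPM in double-mutant replicates 1 and 2. Ctsb was at 129 and 100 against 553 and 661 CPM, and Mmp14 at 7.43 and 10.4 against 59.0 and 88.0 CPM. For these 3 genes the genotypes stood well apart. Gpnmb was at 0.572 and 0 against 17.2 and 8.95 CPM, Ctsk at 7.43 and 4.99 against 27.2 and 23.9 CPM, and Ctsd at 146 and 146 against 254 and 342 CPM.

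Mmp12 was at 33.2 and 4.99 CPM in control and 79.0 and 95.5 CPM in double-mutant CITE-seq glands, a log2 difference of 1.52 ± 0.63 (SE). Control replicate 1 was high for a control. Of 7 genes tested, Spp1 (3.72 ± 0.45), Gpnmb (4.71 ± 0.89), Mmp14 (2.28 ± 0.35) and Ctsb (1.69 ± 0.27) passed as higher, beside 9.24% of 10058 genes called higher, 4.47% lower and 13.7% either way (edgeR), and nothing is read from this count or the next, since these glands were part of the choice of genes. Inside Tyrobp-positive cells Spp1 (143 and 87.8 against 1186 and 1549 CPM, log2 difference 3.42 ± 0.32) passed, beside 0.615% of 2276 genes called higher, 0.571% lower and 1.19% either way. Mmp12 there was at 183 and 39.0 against 330 and 378 CPM. Cells with Mmp12, Spp1 and Gpnmb together numbered 2 and 1 in the double-mutant glands and 0 in both controls. Gpnmb had 0 UMIs in Tyrobp-positive cells of both controls, so no such cell could be found there. In stromal cells Ctsk had 24 of its 24 control and 43 of its 46 double-mutant UMIs.

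Surface proteins were read as the mean percentage of all antibody tags of a cell. In double-mutant replicate 1, the 30 Tyrobp-positive cells with a UMI of Mmp12, Spp1 or Gpnmb had 5.55% of their tags from CD11c, an integrin of macrophages and dendritic cells, against 2.93% in the 138 Tyrobp-positive cells without one and 1.75% in other cells. Replicate 2 had 7.59%, 3.40% and 1.70%, over 21, 121 and 355 cells. Medians over cells had the same order in both (3.61% and 2.10%, then 3.88% and 2.20%, with and without). In control replicate 1 the mean was 2.10% in 26 cells with and 3.53% in 93 without (medians 1.58% and 2.08%). In control replicate 2 it was 2.01% in 9 cells with and 2.47% in 87 without, and the medians had the other order (1.68% and 1.55%). CD11c is 1 of several antibodies read. MHC class II had 48.8% with and 36.8% without in double-mutant replicate 1, and 38.2% and 34.0% in replicate 2. In the controls it had 62.5% and 41.9%, then 71.9% and 43.8%. CD172a was also higher with, and CD169, Lamp1, CD74 and the control antibodies lower, in each gland. Cells with one of the genes held more tags (double-mutant medians 2234.5 against 1204, then 1451 against 1120). With 2 glands of each genotype no test was run.

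In bulk RNA, 1 library of each genotype, the genes can be set side by side per length. The order in the control gland was Ctsd at 78.2 TPM (transcripts per 1000000), Ctsb at 17.3, Mmp14 at 1.96, Ctsk at 1.33 and Spp1 at 0.54, with Mmp12, Mmp13 and Gpnmb under 0.1 TPM. In the double-mutant gland Spp1 at 7.70 TPM stood above Mmp14 (2.06) and Ctsk (1.93), with Gpnmb at 0.961 and Mmp12 at 0.79 below and Ctsd (103) and Ctsb (24.1) still highest. The stages differ between the libraries, so that genotype, stage and gland cannot be told apart.

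Counts in bulk went from 6 to 244 for Gpnmb (chr6:49036546-49070929, mm10), a CPM ratio of 40.4 with a counting interval of 18.3 to 111. Mmp12 (chr9:7344381-7369499) went from 11 to 223 counts, a ratio of 20.1 (11.045 to 40.9), and Spp1 (chr5:104435118-104441050) from 35 to 495, a ratio of 14.1 (9.97 to 20.4). The other genes had ratios nearer 1, of 1.43 for Ctsk, 1.37 for Ctsb, 1.30 for Ctsd and 1.04 for Mmp14, beside 1.28 for Tyrobp. Mmp13, with 3 and 2 counts, gave a ratio of 0.663 (0.0553 to 5.78). TMM scaling raised each of these ratios, to 49.6, 24.7 and 17.2 for the first 3 and 1.58 for Tyrobp. The ratios of Spp1, Mmp12 and Gpnmb thus exceeded that of Tyrobp in these libraries, in which fewer cells of a type and less RNA per cell cannot be told apart.

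Other genes of these pathways, on lists drawn up with results of these data known, were counted in the same fits, without batch. With batch as a term, the genotype calls among all genes went from 2308 to 309 in whole glands. Inside Tyrobp-positive cells they went from 178 to 29. The lists were not counted in the fits with batch. Of 11 other cathepsins 9 were tested in whole glands and 6 were higher in double-mutants (median log2 fold change 0.87, all genes 0.02), beside 14.4% of all genes called higher. They were led by Ctss (1.94 ± 0.39), Ctsc (1.115 ± 0.27), Ctsz (1.09 ± 0.21) and Ctsa (0.87 ± 0.18). In Tyrobp-positive cells 4 of 6 were higher, Ctsl (1.41 ± 0.31), Ctsa (1.05 ± 0.27), Ctsz (0.83 ± 0.20) and Ctss (0.78 ± 0.25), beside 7.75% of all genes. Cathepsin L is an endopeptidase of the lysosome, and cathepsins S and Z are known from antigen presenting cells.

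Lysosomal enzymes and membrane proteins were higher inside Tyrobp-positive cells in 10 of 18 tested genes (median 0.67, all genes -0.00418), beside 7.75% of all genes called higher. Among them were Grn (1.40 ± 0.24), Psap (1.1204 ± 0.24) and Lamp1 (0.96 ± 0.27). The macrophage markers had a median of 0.55 in the same fit, and the part of a larger macrophage share of this RNA was not tested. Grn and Psap encode progranulin and prosaposin, which serve lysosomal lipid breakdown. Of 12 subunits of the vacuolar proton pump, which acidifies the lysosome, 0 were called there (edgeR, median 0.34), and in whole glands 0 of 15 were higher and 2, Atp6v1e1 (-0.53 ± 0.15) and Atp6v1d (-0.49 ± 0.16), were lower. The MiT/TFE factors, which drive lysosomal genes, were called in 0 of 3 tested in whole glands and were not tested in Tyrobp-positive cells.

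Of the genes of lipid-laden macrophages, 6 of 12 were higher and 1, Cd9, lower in whole glands (14.4% and 7.56% of all genes), with Itgax, the CD11c gene, at 2.46 ± 0.46, Abca1 at 1.90 ± 0.35, Trem2 at 1.87 ± 0.38 and Lpl at 1.71 ± 0.33. Inside Tyrobp-positive cells, where 7.75% of all genes were called higher, 3 of 9 were, the cholesterol exporter Abca1 (1.63 ± 0.35), Lgals3 (1.35 ± 0.35) and Itgax (1.35 ± 0.38). Acp5, the tartrate-resistant acid phosphatase of osteoclasts and some macrophages, was higher there too (1.31 ± 0.31), as 1 of 2 osteoclast genes tested. Of 14 macrophage markers 5 were higher in the summed UMIs of these cells, led by Lyz2 (1.69 ± 0.33) and Fcgr3 (0.91 ± 0.23). Epithelial Aqp5 (-1.82 ± 0.53) and Epcam (-1.38 ± 0.36) were lower in the same cells, as 2 of 4 tested, and the part of free epithelial RNA in this was not tested.

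Other matrix metalloproteinases were rarely read, with 2 of 18 tested in whole glands and both higher (14.4% of all genes there, 7.75% inside Tyrobp-positive cells), Mmp2 (2.34 ± 0.37), a gelatinase of fibroblasts, and Mmp15 (1.27 ± 0.29). Of the protease inhibitors 2 of 5 were higher, Timp1 (2.59 ± 0.49) and Cst3 (0.83 ± 0.30), and inside Tyrobp-positive cells 1 of 3, Cstb (0.90 ± 0.21), which blocks cathepsin B. Of the receptors of osteopontin 3 of 5 were higher in whole glands, Itga4 (2.12 ± 0.45), Itgav (1.02 ± 0.23) and Itgb5 (0.99 ± 0.20), and Itgb5 also inside Tyrobp-positive cells (0.91 ± 0.25). No gene of these lists passed by stage in double-mutant glands (edgeR).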

How the data were processed

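The authors deposited tables of UMI counts (genes by barcodes), made with Drop-seq tools and STAR on mm10 with Gencode vM7, antibody tag counts (UMIs or reads not stated), and bulk counts per gene from featureCounts 1.6.0, which was run without a strand setting on a stranded kit. None was normalized. The genes and lists were chosen with earlier results of these data known. They are named by design: the 8 members everywhere, up to 4 called genes of each other list with the largest fold change, and the 3 genes most like each member in Tyrobp-positive cells of double-mutant glands (Spearman, log2 CPM, prior count 2). Some genes that this rule names are not reported here. UMIs were summed per gland and tested with edgeR 4.0.16 (quasi-likelihood, TMM, filterByExpr, Benjamini-Hochberg over all genes, threshold 0.05), with stage and sex as covariates by genotype and sex by stage, in R 4.3.3. The SE of an edgeR log2 fold change was taken back from its test, as its absolute value over the square root of the quasi-likelihood F. Glands with under 10 Tyrobp-positive cells were left out of fits inside these cells. Doublets were not called. Where a share or ratio is given with an interval it is exact at 95%, and a count of 0 was taken to allow 3 counts. Cells were thinned to 500 UMIs where shares were compared. Share tests drew 100000 resamples or were exact. Alternatives were DESeq2 1.42.0, no filter, library sizes only, thinned glands, batch, the replicate number as a block, and fits without named glands. The fits were tested on simulated counts.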

Additional observations from a re-analysis of the deposited data

Results flagged for a closer look

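Of 67 groups of 5 to 7 glands checked, 17 held a gland set apart from the others by Dixon's gap. For normal values about 1 in 20 would be. Some of these groups held a low gene that was read in 1 gland and at 0 in the others, so the 17 cannot be set against that rate. Explanations were not tested.

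In double-mutant P40 replicate 5 whole-gland Mmp12 (280 CPM, next 43.9) and Spp1 (870 CPM, next 296) and Ctsk in Tyrobp-positive cells (38.3 CPM, next 14.7) were high. Double-mutant P90 replicate 5, a library whose sex transcripts go against its label, was high in Mmp12 (630 CPM, next 220), Spp1 (1629 CPM, next 516) and Ctsb (1392 CPM, next 653) in the whole gland. Both had the fewest UMIs of all double-mutant glands, 650301 and 691944, with 488 and 408 in the median cell. Double-mutant P40 replicate 2 had 19.6% Tyrobp-positive cells (next 10.7%).

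Control P90 replicate 2 was high inside its 42 Tyrobp-positive cells, with 243 CPM of Mmp14, 759 CPM of Ctsd, and 30.4 CPM each of Gpnmb and Ctsk, where the last pair rest on 1 UMI each, and its whole-gland Ctsk was 2.94 CPM. Control P40 replicate 1 had 1.72 CPM of Mmp13 and 0.86 CPM of Gpnmb, and control P40 replicate 2 had 2.40 CPM of Ctsk, in the whole gland. Mmp13 in Tyrobp-positive cells was at 9.20 CPM in control P40 replicate 5 and 8.28 CPM in control P90 replicate 1, with the other glands of each group at 0.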

How the results depend on the processing

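Of the fold changes of the 8 genes under all alternatives, 465 kept their direction and side of the threshold, 17 became called, 15 lost the call and 17 changed sign. For other counts and shares, 130 stayed within 1.5 times, 51 did not and 2 changed sign. The cause was not tested. Genes called in whole glands by genotype numbered 5583 with library sizes only, 309 with batch as a term (2 of the 8 genes) and 1089 after thinning. By stage in double-mutant glands they numbered 232 with no filter and 3 with DESeq2. In control glands by stage they numbered 2235 with no filter and 300 after thinning, and library sizes only added 1 of the 8, Ctsd. The interaction gave 189 with no filter (1 of the 8), 8 with DESeq2, 0 without the doubtful pair, 3 without double-mutant P90 replicate 4 and 0 with batch.

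Inside Tyrobp-positive cells the genotype calls numbered 290 with no filter, 514 with library sizes only, 29 with batch (2 of the 8), 57 with at least 2 Tyrobp UMIs and 101 with at least 2 macrophage markers, and the stage calls 86 with no filter and 5 with DESeq2. Outside them the genotype calls numbered 2685 with no filter (7 of the 8), 5023 with library sizes only, 1084 without the pair and 145 with batch (0 of the 8), and the stage calls 245 with no filter (1 of the 8, Mmp12) and 3 with DESeq2. In CITE-seq whole glands they numbered 2356 with no filter, 644 with DESeq2, 3107 with library sizes only (7 of the 8) and 380 to 1050 (3 to 4 of the 8) with 1 gland left out, where the lone gland was assumed to vary like the other group. In CITE-seq Tyrobp-positive cells they numbered 0 with no filter (0 of the 8) and 103 to 274 (1 to 2 of the 8) with 1 gland left out. The stage difference in the share of Tyrobp-positive cells was -0.358 points with at least 2 Tyrobp UMIs and -1.44 over the glands of batches that hold both stages.

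Signs changed as follows. With batch as a term Ctsd by genotype was -0.0582, and in the interaction Mmp13 was 0.11 and Ctsd -0.38. Without the pair, by stage in double-mutant glands, Mmp13 was -0.0753, Spp1 -0.0334 and Gpnmb -0.65 in whole glands, Gpnmb -0.74 inside and Spp1 -0.26 outside of Tyrobp-positive cells, and in the interaction Spp1 was -0.0910 and Ctsd -0.14. With library sizes only, which moved the median of all genes by 0.68 by genotype and 0.22 by stage, Mmp14 by stage in controls was 0.0278, Ctsd in the interaction -0.10, Gpnmb by stage inside -0.0667 and Ctsd by genotype outside 0.54. Thinning gave Ctsb by stage in controls -0.0638, and leaving out 1 gland gave Ctsd in CITE-seq Tyrobp-positive cells values from -0.0208 (without control replicate 1) to 0.966.

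Replicate numbers did not pair the glands, since correlations of same-numbered glands ran from -0.357 to 0.513 over 37 pairs and 7 of 26 glands correlated best with their own number. With the replicate block 3359 genes were called by genotype in whole glands, 2804 outside of Tyrobp-positive cells and 168 in CITE-seq Tyrobp-positive cells (2 of the 8), and Gpnmb in the interaction was 0.83. Keeping cells with at least 2 Tyrobp UMIs was not run for cells without Tyrobp, which it does not change. The alternatives with library sizes only and with at least 2 macrophage markers were chosen after the data were seen. A gland with few Tyrobp-positive UMIs limits low genes such as Mmp13 and Ctsk.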
